A study of Ictidomys tridecemlineatus with 31 samples.

Results

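The mRNA decay regulators described here are 10 genes whose proteins shorten the poly(A) tail of mRNAs or decide which mRNAs are shortened, measured by RNA-seq in kidneys of 13-lined ground squirrels (Ictidomys tridecemlineatus). They were chosen by gene symbol, with case ignored, from the 12863 genes of the authors' table, and all 10 symbols were found, each on 1 row. They are Btg1 (gene7944), Btg2 (gene13276), Tob1 (gene5363), Tob2 (gene5839), Zfp36 (gene18838), Zfp36l1 (gene6398), Zfp36l2 (gene8033), Mex3c (gene6609), Cnot7 (gene13700), and Pan3 (gene1284). Btg2 and Mex3c were selected on their differences across states in these same data, and the set is named after them and Zfp36, so for these 3 genes values and differences are given as a description, with no p or q, and where they are counted as called the count only restates the choice.

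The table held 31 kidneys, each from a different animal, in 6 states of the yearly cycle. Summer active (SA, 5 animals) and spring dark (SpD, 5 animals, past their last torpor bout but still in the dark hibernaculum) were warm all day, and interbout aroused animals (IBA, 5) were warm between bouts of torpor. Animals entering torpor (Ent, 5), early arousing animals (EAr, 5, at the cold start of rewarming), and late arousing animals (LAr, 6, later in the same rewarming) were sampled below the warm body temperature. All were squirrels without a genetic change or experimental drug, 17 females and 14 males, for which age is not given in the sources used here. By the paper, every animal was put under isoflurane, bled, and perfused with ice-cold phosphate buffer before the kidneys were taken. A fragment of each frozen kidney was used. Experiment 1 (9 animals, 3 each of IBA, Ent, and SpD) and experiment 2 (the other 22) used different library kits, so SA, EAr, and LAr came from experiment 2 alone. K113 (LAr) and K137 (SA), which the paper left out of its differential expression analysis, are shown apart, and means and tests use the other 29.

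Values are regularized log (rlog) values, a log2 scale that allows for library size and draws in the noise of low counts, and the authors had taken the mean difference between the experiments out of them. A difference of 1 is 2-fold. Both kits selected polyadenylated RNA, so a value measures the mRNA that kept enough poly(A) tail to be captured, and without counts the sequencing depth of each kidney is unknown. In a whole-tissue fragment, fewer cells of a type and less RNA per cell cannot be told apart. Differences between states were fitted with limma over all 12863 genes with state, sex, and experiment in the model, with Benjamini-Hochberg adjusted values (q), and a gene is called differentially expressed (DE) at the threshold of the paper, q under 0.001. A pair of states is written first over second, and its log2 difference is the first minus the second, with its standard error (SE).

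An mRNA in the cytoplasm is usually lost in steps. Its poly(A) tail is trimmed by the PAN2-PAN3 complex and then by the CCR4-NOT complex, after which the cap is removed and the body is degraded from the 5' end, or the exosome degrades it from the 3' end. BTG and TOB proteins share a domain that binds the catalytic CAF1 subunit of CCR4-NOT, encoded by Cnot7 or Cnot8, and are known as inhibitors of cell proliferation. ZFP36 proteins are zinc finger proteins that bind AU-rich elements in the 3' UTR of short-lived mRNAs and bring CCR4-NOT to them, while MEX3C is an RNA-binding ubiquitin ligase. Btg2 and Zfp36 are also early response genes, whose own mRNAs are short-lived and rise quickly after a stimulus in many cell types.

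The state mean was lowest in Ent or EAr for 8 of the 10 genes, where 22.6% of all genes had their lowest mean in these states. Btg2, Zfp36, and Mex3c were in the set for such differences, and of the other 7 members 5 were lowest there (Btg1, Tob1, Tob2, Zfp36l1, and Zfp36l2). The exceptions were Cnot7, lowest in SpD, and Pan3, lowest in SA. Of the 5, only Tob1 was DE across states, and Btg1 read 10.38 in both EAr and LAr. In experiment 2, the only one with all 6 states, Btg1, Tob1, and Zfp36l1 were lowest in Ent. There Tob2 was lowest in IBA (10.23, against 10.42 in Ent) and Zfp36l2 in LAr (11.49, against 11.65 in Ent). Over both experiments, Cnot7 and Pan3 were the only members with their highest mean in EAr, although their state means spanned only 0.24 and 0.34. The span between the highest and the lowest state mean was 1.75 for Zfp36, 1.59 for Btg2, 0.96 for Mex3c, and 0.59 for Tob1, and between 0.24 and 0.49 for the other 6. Across the 6 states, 4 members were DE (Btg2, Zfp36, Mex3c, and Tob1) among 1201 of 12863 genes (9.34%), and nothing is read from that count, since the set was drawn up with such values known.

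**Figure D1:**
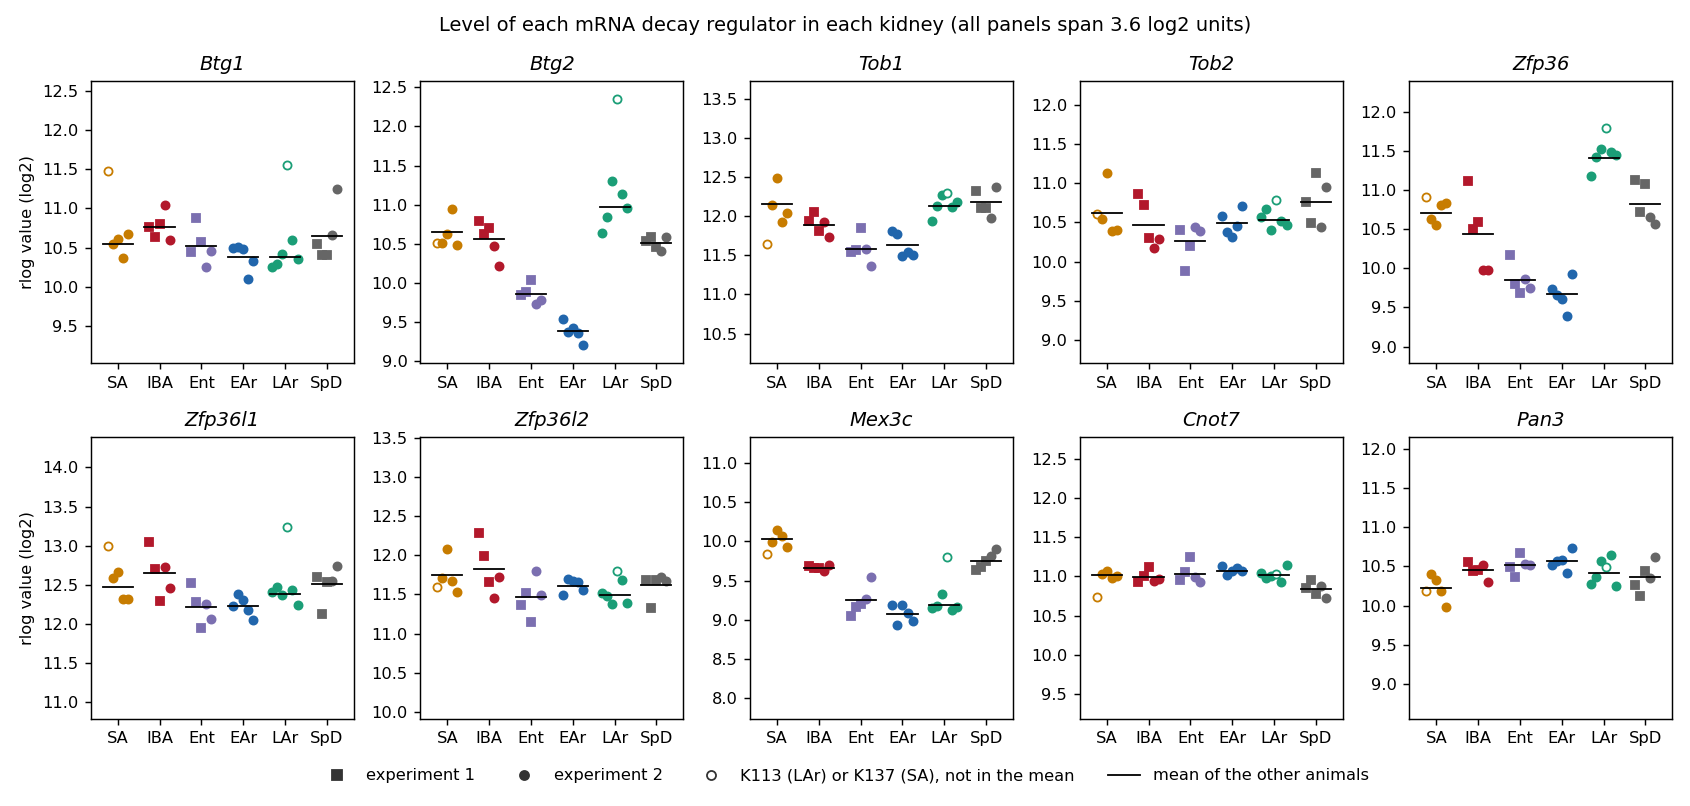
The rlog value (log2 scale) of each of the 10 genes in each of the 31 kidneys, by state, with squares for experiment 1, filled circles for experiment 2, open circles for K113 and K137, and a bar at the mean of the other animals. Btg2 and Zfp36 are lowest in EAr and highest in LAr, Mex3c is high in SA, SpD, and IBA and low in Ent, EAr, and LAr, and Cnot7 and Pan3 lie nearly level.

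Btg2, an adaptor and a p53 target known for stopping cell division, was lower in Ent and lowest in EAr, and was 3.03-fold higher in LAr than in EAr. In EAr it read 9.54, 9.38, 9.42, 9.36, and 9.21 in animals K154, K156, K157, K158, and K165, and in LAr 10.64, 10.84, 11.30, 11.14, and 10.95 in K109, K111, K112, K115, and K116. The lowest LAr kidney was thus over 1 log2 unit above the highest EAr kidney. In Ent it read 9.73, 9.79, 9.84, 9.88, and 10.04 in K155, K167, K2, K5, and K8, so that every EAr kidney lay below every Ent kidney. In IBA it read 10.80, 10.62, and 10.70 in K1, K4, and K7 of experiment 1 and 10.47 and 10.22 in K104 and K171 of experiment 2. In SA it read 10.52, 10.63, 10.94, and 10.49 in K138 to K141, and in SpD it kept to a narrow range of 10.41 to 10.59. LAr overlapped SA and IBA and lay above all SpD kidneys, and the order of the state means was LAr, SA, IBA, SpD, Ent, and EAr, in which the ranges of the neighbours overlapped except SpD against Ent and Ent against EAr.

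The fitted log2 differences of Btg2 were -0.70 (SE 0.10) for Ent/IBA, -0.37 (SE 0.12) for EAr/Ent, 1.60 (SE 0.11) for LAr/EAr, and -0.52 (SE 0.12) for IBA/LAr. IBA, SA, and SpD differed by at most 0.23. Within experiment 1 the Ent mean was 0.78 below that of IBA (difference -0.78), and within experiment 2 it was 0.58 below (difference -0.58), whereas the pairs with EAr, LAr, or SA have no value within experiment 1.

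Btg1, the closest relative of Btg2, did not share this course. Its state means lay between 10.38 (EAr and LAr) and 10.76 (IBA), every neighbouring pair in their order overlapped, and it was not DE across states (limma, q = 0.109). LAr/EAr was 0.00 with a 95% confidence interval of -0.28 to 0.28. The largest difference was IBA/LAr, 0.44 (interval 0.13 to 0.75, limma q = 0.043), in the opposite direction to Btg2. Within each kidney, Btg2 minus Btg1 was -0.998 ± 0.16 (SD, n = 5) in EAr and 0.59 ± 0.18 (n = 5) in LAr, without overlap, and passed through -0.20 ± 0.26 (n = 5) in IBA and -0.67 ± 0.19 (n = 5) in Ent. These differences mix 2 genes of unlike length, so only their change between states is read.

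Tob1, an adaptor that also binds the poly(A)-binding protein, was DE across states (limma, q = 5.3e-05), the only call among the 7 members that could be tested. The order of its deposited means was SpD at 12.17 ± 0.17 (SD, n = 5), SA at 12.15 ± 0.24 (n = 4), LAr at 12.13 ± 0.12 (n = 5), IBA at 11.89 ± 0.12 (n = 5), EAr at 11.62 ± 0.15 (n = 5), and Ent at 11.58 ± 0.17 (n = 5), and each overlapped its neighbour. With sex and experiment in the fit, SA and LAr stood ahead of SpD, and the order of the rest was the same. In EAr it read 11.81, 11.77, 11.49, 11.55, and 11.50 in K154, K156, K157, K158, and K165, all below the 11.94, 12.13, 12.26, 12.11, and 12.18 of the LAr kidneys K109, K111, K112, K115, and K116. LAr/EAr was 0.48 (SE 0.10, limma q = 0.014), Ent/IBA -0.31 (SE 0.10, q = 0.040), and IBA/SA -0.33 (SE 0.12, q = 0.042), none of them past 0.001. Ent/IBA was -0.28 within experiment 1 and -0.35 within experiment 2. In experiment 2 alone the q across states was 0.0016, which ends the call with 20 animals.

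Tob2, the second TOB gene, had state means between 10.26 (Ent) and 10.75 (SpD) and spread more widely within states, from 10.38 to 11.13 in SA and from 10.44 to 11.12 in SpD. It was not DE across states (limma, q = 0.129), and LAr/EAr was 0.06 with a 95% confidence interval of -0.26 to 0.38. Its Ent/IBA difference was -0.47 within experiment 1 and 0.19 within experiment 2, so its direction differed between the experiments.

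Zfp36, which encodes tristetraprolin, the founding member of its family, was 3.38-fold higher in LAr than in EAr. In EAr it read 9.74, 9.66, 9.61, 9.39, and 9.93 in K154, K156, K157, K158, and K165, and in LAr 11.17, 11.43, 11.53, 11.49, and 11.45 in K109, K111, K112, K115, and K116. All 5 LAr kidneys lay above all 24 kidneys of the other states, the nearest being an SpD kidney at 11.13. In Ent it read 9.86 and 9.75 in K155 and K167 and 10.17, 9.79, and 9.69 in K2, K5, and K8. In IBA it read 11.12, 10.50, and 10.59 in K1, K4, and K7 of experiment 1 but 9.97 and 9.98 in K104 and K171 of experiment 2. The IBA kidneys therefore split by experiment, and those of experiment 2 lay within the range of Ent. SA ranged from 10.55 to 10.84 and SpD from 10.56 to 11.13.

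The fitted log2 differences of Zfp36 were 1.76 (SE 0.13) for LAr/EAr, -1.22 (SE 0.15) for IBA/LAr, -0.58 (SE 0.13) for Ent/IBA, and -0.51 (SE 0.16) for IBA/SA. Ent/IBA was -0.85 within experiment 1 and -0.17 within experiment 2, and SpD/IBA was 0.24 and 0.63. The fitted term for experiment was -0.40 for Zfp36 (experiment 2 minus experiment 1, SE 0.11, limma q = 0.391), the largest of the 10 genes in size. The order of the deposited means was LAr, SpD, SA, IBA, Ent, and EAr, and in the fit with this term SA stood ahead of SpD and EAr ahead of Ent. The ranges of neighbours overlapped except that of LAr.

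Zfp36l1 and Zfp36l2, the other family members, were not DE across states (limma, q = 0.045 and 0.144) and had their highest means in IBA. Zfp36l1 was 12.65 ± 0.28 (SD, n = 5) in IBA and 12.22 ± 0.22 (n = 5) in Ent, a difference of -0.43 (SE 0.13, limma q = 0.027) that was -0.43 within experiment 1 and -0.44 within experiment 2. Zfp36l2 was 11.82 ± 0.32 (n = 5) in IBA and 11.46 ± 0.24 (n = 5) in Ent, a difference of -0.36 (SE 0.13, limma q = 0.074) that was -0.64 within experiment 1 and 0.06 within experiment 2. LAr/EAr was 0.15 for Zfp36l1 (95% confidence interval -0.12 to 0.41) and -0.12 for Zfp36l2 (-0.39 to 0.16), intervals that do not reach the size of the Zfp36 difference.

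Mex3c was high in the warm states and low in the cool ones. All 14 kidneys of SA, SpD, and IBA read between 9.62 and 10.14, and all 15 of Ent, EAr, and LAr between 8.94 and 9.55. In IBA it read 9.69, 9.62, 9.70, 9.66, and 9.66 in K1, K104, K171, K4, and K7, an SD of 0.03 that was the smallest of any member in any state. In Ent it read 9.27, 9.55, 9.04, 9.17, and 9.20 in K155, K167, K2, K5, and K8, in EAr 9.19, 8.94, 9.19, 9.08, and 8.99 in K154, K156, K157, K158, and K165, and in LAr 9.15, 9.17, 9.33, 9.13, and 9.16 in K109, K111, K112, K115, and K116. The 3 cool states overlapped each other. SA, at 9.99, 10.14, 10.07, and 9.93 in K138 to K141, lay above all SpD kidneys (9.64 to 9.90), which overlapped IBA.

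The fitted log2 differences of Mex3c were -0.42 (SE 0.07) for Ent/IBA, -0.26 (SE 0.08) for EAr/Ent, 0.12 (SE 0.07) for LAr/EAr, 0.57 (SE 0.08) for IBA/LAr, and -0.28 (SE 0.08) for IBA/SA. Mex3c was thus 1.48-fold higher in IBA than in LAr, while Btg2 and Zfp36 were 1.44-fold and 2.33-fold lower in IBA than in LAr. Ent/IBA was -0.53 within experiment 1 and -0.25 within experiment 2. The 3 values share the IBA and LAr animals and are set side by side only.

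Cnot7, a catalytic subunit of CCR4-NOT and the partner of BTG and TOB proteins, was nearly level. Its state means ran from 10.84 ± 0.09 (SD, n = 5) in SpD to 11.07 ± 0.04 (n = 5) in EAr, and it was not DE across states (limma, q = 0.0075). SA, at 10.98 to 11.07, lay above SpD, at 10.72 to 10.96, a difference of 0.24 (SE 0.06, limma q = 0.021). In the torpor-arousal pairs its differences were 0.04 for Ent/IBA, 0.10 for EAr/Ent, -0.06 for LAr/EAr, and -0.08 for IBA/LAr, and their 95% confidence intervals ran no lower than -0.20 and no higher than 0.22.

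Pan3, the regulatory subunit of the PAN2-PAN3 deadenylase, was lowest in SA at 10.22 ± 0.18 (SD, n = 4) and highest in EAr at 10.56 ± 0.11 (n = 5), and was not DE across states (limma, q = 0.057). Its largest difference was IBA/SA, 0.27 (SE 0.11, limma q = 0.070), and in the 4 torpor-arousal pairs it differed by at most 0.13.

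**Figure D2:**
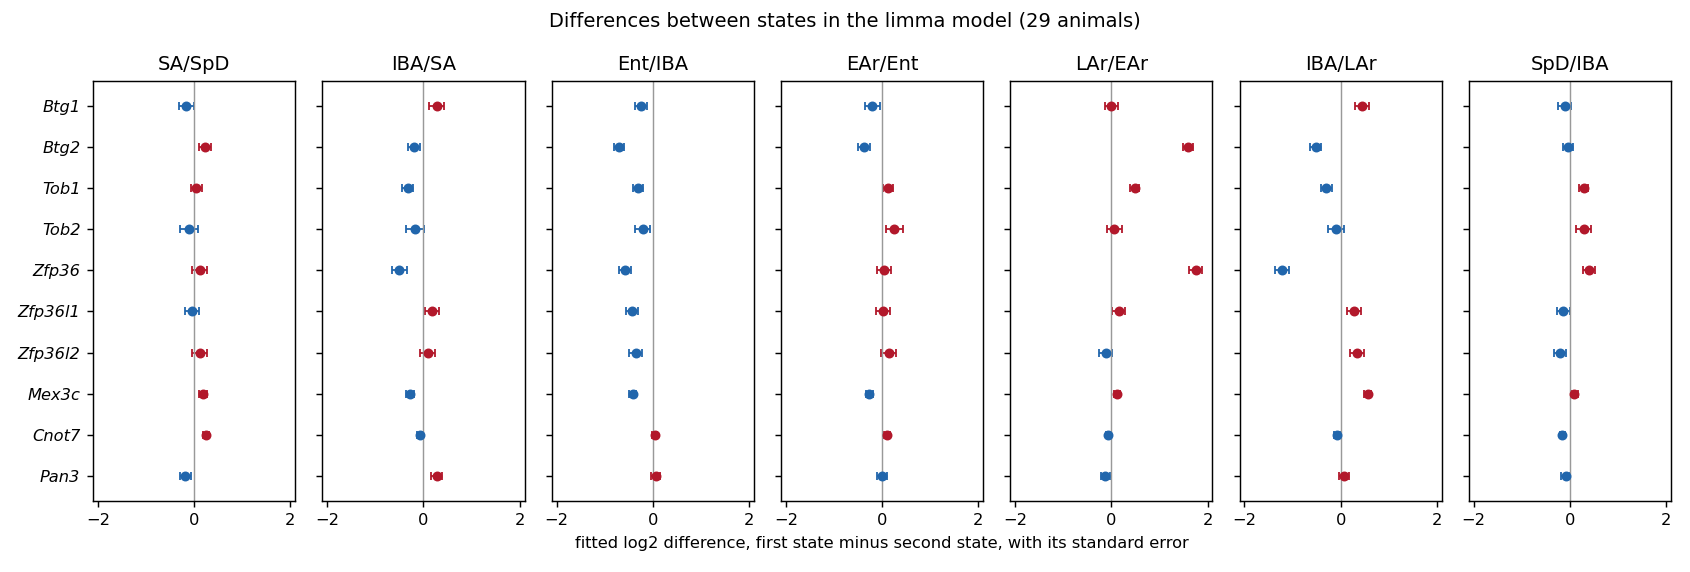
The fitted log2 difference (horizontal axis, first state minus second) of each of the 10 genes in the 7 pairs, with its standard error, from 29 animals, red where the first state is higher and blue where it is lower. LAr/EAr holds the largest values, 1.76 for Zfp36 and 1.60 for Btg2, while the largest points of Cnot7 and Pan3 are 0.24 (SA/SpD) and 0.27 (IBA/SA).

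By pair, 2 members were DE in Ent/IBA (Btg2 and Mex3c, both lower in Ent; 0.746% of all genes were DE), 2 in LAr/EAr (Btg2 and Zfp36, both higher in LAr; 0.295%), and 2 in IBA/LAr (Zfp36 lower and Mex3c higher in IBA; 1.43%). None was DE in SA/SpD (0.0544%), IBA/SA (3.15%), EAr/Ent (0.132%), or SpD/IBA (1.25%) by limma. All these calls are of the 3 genes that gave the set its name, and nothing is read from their number. The 2 calls of Ent/IBA hung on single animals, with 0 left without K2 (Ent), K1 (IBA), or K4 (IBA) and 1 left without K155, K5, or K8 (Ent) or K7 (IBA), and 0 left when K113 and K137 were added or when experiment 2 was taken alone. For IBA/LAr the count was 1 with all 31 animals and 1 in experiment 2 alone (Zfp36 in both). For LAr/EAr it remained 2 with each animal left out.

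Of the other 7 members, none passed 0.001 in any pair, and at limma q under 0.05 the counts were 1 in SA/SpD, 1 in IBA/SA, 2 in Ent/IBA, 1 in LAr/EAr, 1 in IBA/LAr, and 0 in EAr/Ent and SpD/IBA, where 10.5%, 22.9%, 13.1%, 0.575%, 18.0%, 0.257%, and 11.9% of all genes passed. At an unadjusted p under 0.05 the counts in the same order were 1, 2, 3, 1, 3, 0, and 2. The animals of the 2 states did not overlap in Mex3c and Cnot7 for SA/SpD (9.37% of all genes), in Mex3c for IBA/SA (18.8%), in Btg2 and Mex3c for Ent/IBA (7.74%), in Btg2 for EAr/Ent (1.20%), in Btg2, Zfp36, and Tob1 for LAr/EAr (6.84%), in Zfp36 and Mex3c for IBA/LAr (13.7%), and in no member for SpD/IBA (6.51%).

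Related genes were also compared within each kidney. Among differences that do not involve Zfp36, Zfp36l1 minus Zfp36l2 was 0.76 to 0.99 in the LAr kidneys and 0.495 to 0.74 in the EAr kidneys, a change of 0.27 (2-sided exact permutation test, p = 0.0079, the smallest it can give, q = 0.048 over the 6 tests without Zfp36). Tob1 minus Tob2 changed by 0.46 between the same states (exact permutation p = 0.016, q = 0.048). Both stood close to the threshold of 0.05, and leaving out 1 of the 10 EAr and LAr animals at a time ended the call in 6 and 8 of 10 fits (q up to 0.095, K165 of EAr), with changes of 0.24 to 0.31 and 0.37 to 0.52. With so few animals the test can take few values, and the exact permutation p of Zfp36l1 minus Zfp36l2 was 0.0079 or 0.016 in these fits. The lost calls therefore cannot show that a change hung on 1 animal. LAr and EAr both came from experiment 2. For IBA/LAr and Ent/IBA, the exact permutation q of the same differences lay between 0.49 and 0.69.

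Zfp36 minus Zfp36l1, given as values only because of how Zfp36 was chosen, was -2.57 ± 0.28 (SD, n = 5) in EAr, -0.97 ± 0.18 (n = 5) in LAr, and -2.22 ± 0.42 (n = 5) in IBA. Zfp36 minus Zfp36l2 was -1.95 ± 0.26 (n = 5), -0.08 ± 0.20 (n = 5), and -1.39 ± 0.27 (n = 5) in the same states. The LAr kidneys lay apart from both other states for both differences, whereas Ent and IBA overlapped.

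**Figure D3:**
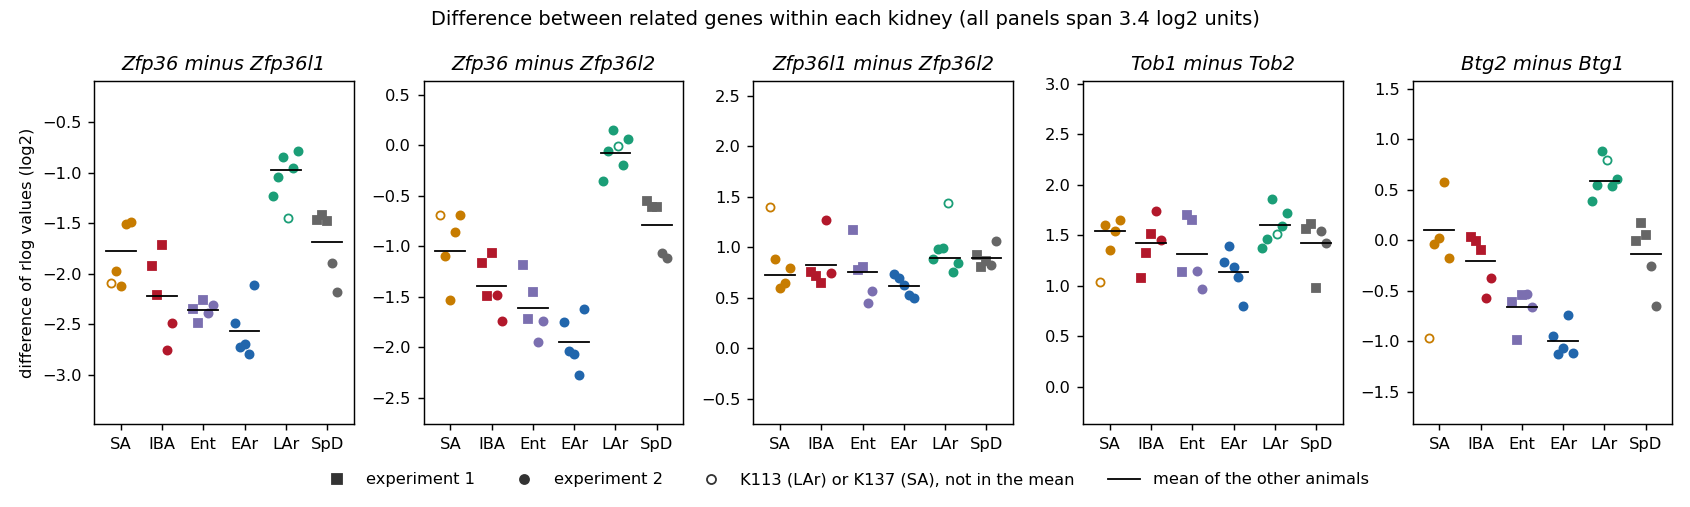
The difference of the rlog values of 2 related genes within each kidney (log2 scale), by state, with symbols as in the plot of levels. The LAr kidneys stand above those of EAr for Zfp36 minus Zfp36l1, Zfp36 minus Zfp36l2, and Btg2 minus Btg1, with smaller shifts for Zfp36l1 minus Zfp36l2 (0.27) and Tob1 minus Tob2 (0.46).

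Sex was independent of the choice of genes. The largest difference between females and males was 0.09 (Tob1, SE 0.06), the lowest limma q of the 10 was 0.841, and 0 of 10 had an unadjusted p under 0.05, where 0.0233% of all genes were DE between the sexes. The terms for experiment gave a lowest q of 0.391. They cannot show whether the kits differed, since the authors had already taken the mean difference between experiments out.

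K113 and K137 departed from their states in different members. K113 lay above every other LAr kidney in 8 of the 10 genes (35.6% of all genes did so), among them Btg2 at 12.35 against 10.64 to 11.30, Btg1 at 11.55 against 10.25 to 10.60, Zfp36l1 at 13.24 against 12.24 to 12.47, Zfp36 at 11.79 against 11.17 to 11.53, and Mex3c at 9.81 against 9.13 to 9.33. Its Cnot7 (11.04) and Pan3 (10.49) lay within the range of the others. K137 lay above every other SA kidney in 3 genes (33.9% of all genes), Btg1 at 11.48 against 10.37 to 10.67, Zfp36l1 at 13.00 against 12.31 to 12.67, and Zfp36 at 10.90 against 10.55 to 10.84. It lay below them in 3 (29.5%), Tob1 at 11.65 against 11.93 to 12.49, Mex3c at 9.84 against 9.93 to 10.14, and Cnot7 at 10.73 against 10.98 to 11.07.

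The kidneys with the highest Btg1 had low proximal tubule markers. The 4 highest Btg1 values of the 31 kidneys were 11.55 (K113, LAr), 11.48 (K137, SA), 11.25 (K130, SpD), and 11.04 (K104, IBA). The mean of 6 proximal tubule markers (Slc27a2, Lrp2, Cubn, Slc34a1, Slc5a12, and Slc22a6, 6 of 6 in the table) was 13.80, 14.09, 13.51, and 14.08 in these kidneys, which were 4 of the 5 lowest. The fifth was K7 (IBA) at 14.05, with the sixth highest Btg1, 10.80. Next lowest in markers were K8 (Ent), K84 (SpD), and K5 (Ent), which ranked 14th, 9th, and 5th in Btg1 at 10.58, 10.66, and 10.87. Without K113 and K137, these markers ranged from 15.08 to 15.34 in SA, 14.05 to 14.79 in IBA, 14.26 to 15.07 in Ent, 14.85 to 15.17 in EAr, 14.62 to 15.00 in LAr, and 13.51 to 15.42 in SpD. The inner medulla markers Slc14a2 and Akr1b1 averaged 14.08 in K113, against 9.31 to 9.66 in the other LAr kidneys. In K137 they averaged 14.66, against 9.32 to 11.41 in the other SA kidneys. In K130 they averaged 12.69, against 10.24 to 11.93 in the other SpD kidneys, and in K104 12.70, against 9.61 to 11.33 in the other IBA kidneys. K7 (IBA) and K8 (Ent), also low in proximal tubule markers, read 10.23 and 10.80. Zfp36l1 had K113, K137, K130, and K104 among its 5 highest values, with K1 (IBA) at 13.04 as the second. Other kidneys with low proximal tubule markers did not have high Zfp36l1. K7 (IBA), with the third lowest markers, ranked 22nd in Zfp36l1 at 12.30. K8 (Ent), with the sixth lowest markers (14.26), had the lowest Zfp36l1 of the 31 kidneys, 11.95. The part of tissue composition in the levels of Btg1 and Zfp36l1 was not tested.

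**Figure D4:**
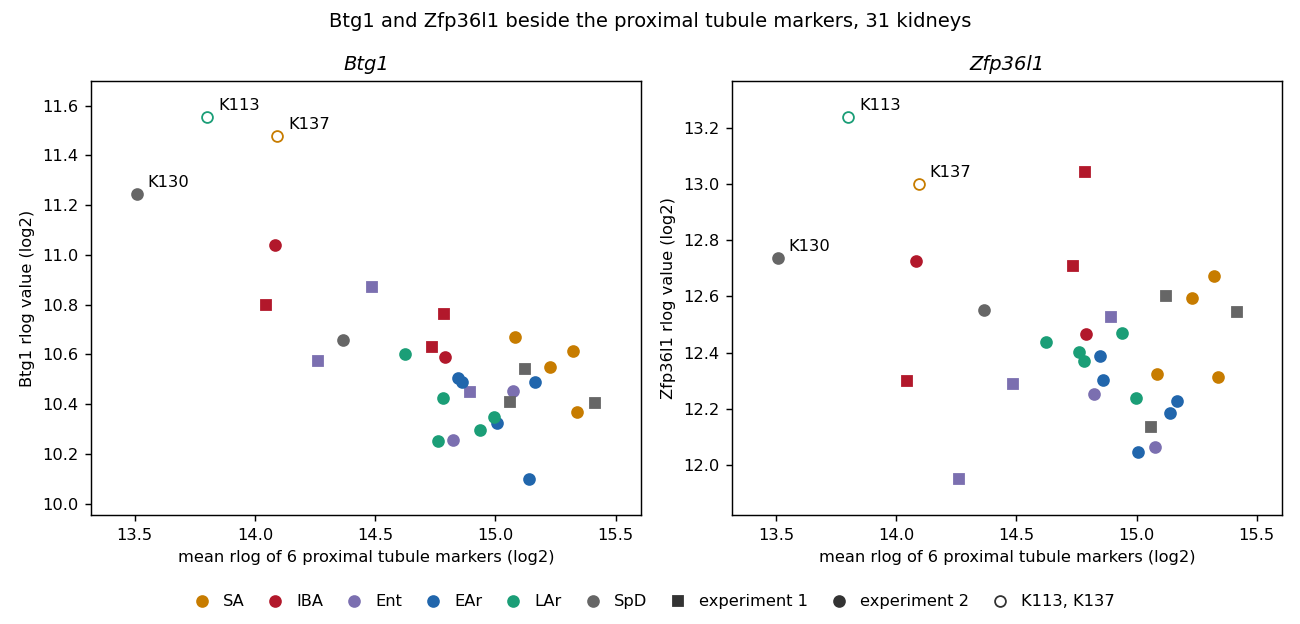
Btg1 and Zfp36l1 (vertical axes, rlog value) against the mean rlog value of 6 proximal tubule markers in each of 31 kidneys, coloured by state, with squares for experiment 1 and open circles for K113 and K137. K113, K137, and K130 sit at the upper left of both panels, with low markers and high values of both genes, while K1 (IBA, Zfp36l1 13.04) has high Zfp36l1 at a marker mean near the middle. K7 (IBA, Zfp36l1 12.30) and K8 (Ent, Zfp36l1 11.95) have low markers without high Zfp36l1.

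For the pairs that hold the differences of Btg2, Zfp36, and Mex3c, markers of 10 kidney cell types (29 genes, all in the table, the lowest reading being 6.11 for Slc14a2) overlapped between the 2 states. This held for 10 of 10 lists in Ent/IBA, EAr/Ent, LAr/EAr, and IBA/LAr, which covered proximal tubule, loop of Henle, distal convoluted tubule, principal and intercalated collecting duct, inner medulla, endothelium, podocytes, macrophages, and fibroblasts. In LAr/EAr and IBA/LAr the inner medulla markers shifted most, by -1.26 and 1.47, at 9.31 to 9.66 in LAr, 9.16 to 11.64 in EAr, and 9.61 to 12.70 in IBA. In Ent/IBA the podocyte markers did, by 0.57, and in EAr/Ent the proximal tubule markers, by 0.30. Podocyte markers also shifted by -0.79 in IBA/LAr. In IBA/SA the proximal tubule and podocyte markers did not overlap, the latter at 9.94 to 11.71 in IBA and 11.84 to 12.37 in SA. The part of these shifts in the members' differences was not tested.

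The rest of the decay machinery was taken from 8 lists of 114 genes, 108 of them in the table, drawn up from general knowledge with results of these data known. Across states, 9 of the 108 (8.33%) were DE, beside 9.34% of all genes, and at q under 0.05 the share was 41.7% beside 46.1%. None of the 108 was DE in EAr/Ent or LAr/EAr, where 0.132% and 0.295% of all genes were. Nor were any at limma q under 0.05 in these pairs, where 0.257% and 0.575% of all genes passed. At such small shares a count of 0 says little about the machinery. In Ent/IBA 3 were DE, all lower in Ent (0.746% of all genes DE), and in IBA/LAr 1 was, higher in IBA (1.43%). In IBA/SA 1 was higher in IBA (3.15%), and in SpD/IBA 1 was lower in SpD (1.25%). Both of these calls were of Mex3d. The SpD/IBA call was lost in 28 of 29 fits with 1 animal left out (limma q up to 0.0039), and the IBA/SA call in 2 of 29 (q up to 0.0017). With all 31 animals their q was 0.013 and 0.018, and in experiment 2 alone 0.033 and 0.0023.

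Of the 11 CCR4-NOT subunits, Cnot10, a scaffold subunit, was DE across states (limma, q = 3.5e-05), lowest in SA at 10.13 ± 0.02 (SD, n = 4) and highest in EAr at 10.50 ± 0.06 (n = 5). Neither the 10 other deadenylases and poly(A)-binding proteins nor the 10 genes of microRNA silencing held a DE gene, with 5 and 3 at limma q under 0.05. Among 20 decapping and 5'-to-3' decay genes, Ddx6, an RNA helicase that activates decapping, was DE (limma, q = 7.5e-05), highest in SA at 12.22 ± 0.16 (SD, n = 4) and lowest in LAr at 11.63 ± 0.06 (n = 5), although its q was 0.0012 with all 31 animals. Among 19 exosome genes, the core subunits Exosc5 (limma, q = 5.2e-05) and Exosc4 (q = 1.7e-04) were lowest in SA, at 8.35 ± 0.11 (SD, n = 4) and 9.32 ± 0.21 (n = 4), and highest in LAr for Exosc5, at 8.85 ± 0.10 (n = 5), while Exosc4 stood at 9.96 in both Ent and LAr.

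Nonsense-mediated decay, which removes mRNAs with premature stop codons, had 3 of 10 genes DE across states (30.0%, beside 9.34% of all genes). Smg5, which links this pathway to decay enzymes, was 11.39 ± 0.10 (SD, n = 5) in IBA, 10.80 ± 0.21 (n = 5) in Ent, 10.78 ± 0.10 (n = 5) in EAr, and 10.91 ± 0.07 (n = 5) in LAr. Its Ent/IBA was -0.59 (SE 0.08, limma q = 1.1e-04) and its IBA/LAr 0.59 (SE 0.08, q = 7.5e-05). The Ent/IBA call was lost in experiment 2 alone (q = 0.016) and with only these 2 states in the fit (q = 0.052), and the IBA/LAr call with no term for experiment (q = 0.0018) and with only these 2 states (q = 0.018). Upf1, the helicase of the pathway, was DE across states (limma, q = 1.3e-04), with 12.82 ± 0.21 (n = 5) in IBA and 12.25 ± 0.33 (n = 5) in Ent, though its Ent/IBA q was 0.0018. Upf3b was also DE (q = 5.9e-04), a call that 16 of the 29 animals could each end when left out, with q up to 0.0017. At limma q under 0.05, 6 of the 10 were lower and 1 (Upf3a) higher in Ent than in IBA, where 7.61% of all genes were lower and 5.52% higher. In IBA/LAr 5 were higher and 1 lower, where 9.93% of all genes were higher and 8.03% lower. The medians of the list were -0.22 and 0.26, beside -0.01 and -0.01 over all genes. Mex3c shared this direction in both pairs.

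Among 22 other 3' end binding proteins, Elavl1 (HuR, which stabilizes AU-rich mRNAs) and Mex3d, a paralog of Mex3c, were DE across states (limma, q = 1.4e-04 and 1.5e-04). In experiment 2 alone these calls were lost (q = 0.0044 and 0.0042), and that of Mex3d also with all 31 animals (q = 0.0033). Both were lower in Ent than in IBA, by -0.33 (SE 0.05, q = 2.6e-04) and -0.52 (SE 0.08, q = 4.2e-04). The Elavl1 call of this pair was lost without K1 (IBA) or K2 (Ent), with q up to 0.0011, and that of Mex3d without K1, K4, or K7 (IBA), with q up to 0.0021, and both were lost with all 31 animals (q = 0.0011 and 0.0068). Both calls were further from the threshold in experiment 2 alone (limma q = 0.116 and 0.137). With only these 2 states in the fit, q was 0.081 and 0.069. Unlike Mex3c, Mex3d was low in SA, at 9.48 ± 0.08 (SD, n = 4), and in SpD, at 9.55 ± 0.06 (n = 5), and high in IBA, at 9.99 ± 0.07 (n = 5). Of 6 genes of the p38-MK2 kinase pathway, which phosphorylates ZFP36, none was DE across states and 3 were lower in Ent than in IBA at limma q under 0.05, where 7.61% of all genes were.

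Of 22 listed mRNAs known from other mammals to carry AU-rich elements bound by ZFP36 proteins, 15 were in the table and 7, among them Tnf and Il6, had no row by symbol. This list, too, was drawn up with results of these data known, so its counts partly restate that choice and nothing is read from them about ZFP36. In LAr, 5 of the 15 were higher than in EAr at limma q under 0.05 and none was lower, where 0.575% of all genes passed. Across states 5 of the 15 were DE (33.3%, beside 9.34% of all genes), and in LAr/EAr 3 were DE, all higher in LAr, with a list median of 0.31 beside 0.00 over all genes. Fos, a transcription factor of the early response whose low q was known when the list was drawn up, read 7.70 ± 0.15 (SD, n = 5) in EAr and 10.41 ± 0.32 (n = 5) in LAr, a difference of 2.73 (SE 0.18). Myc, a growth regulator, rose from 7.87 ± 0.15 (n = 5) to 9.18 ± 0.28 (n = 5), or 1.31 (SE 0.16, limma q = 1.2e-05). Dusp1, a MAP kinase phosphatase, went from 9.58 ± 0.24 (n = 5) to 11.04 ± 0.21 (n = 5), or 1.47 (SE 0.22, q = 3.2e-04), a call that 8 animals could each end when left out, with q up to 0.0018, as did adding K113 and K137 (q = 0.0015). From LAr to IBA, Fos and Dusp1 were lower again, by -2.09 (SE 0.20) and -1.39 (SE 0.25, limma q = 7.4e-04), the latter a call lost without any of 18 animals, with q up to 0.0041. Ier3 and Pim3, the other 2, had their highest means in SpD (11.32 ± 0.56, SD, n = 5) and SA (11.73 ± 0.11, n = 4). In SpD, Ier3 ranged widely, from 11.01 to 12.32, and its IBA mean was close, at 11.25 ± 0.08 (n = 5). Neither binding by ZFP36 nor mRNA half-life was measured here, and only the levels of these mRNAs are compared.

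**Figure D5:**
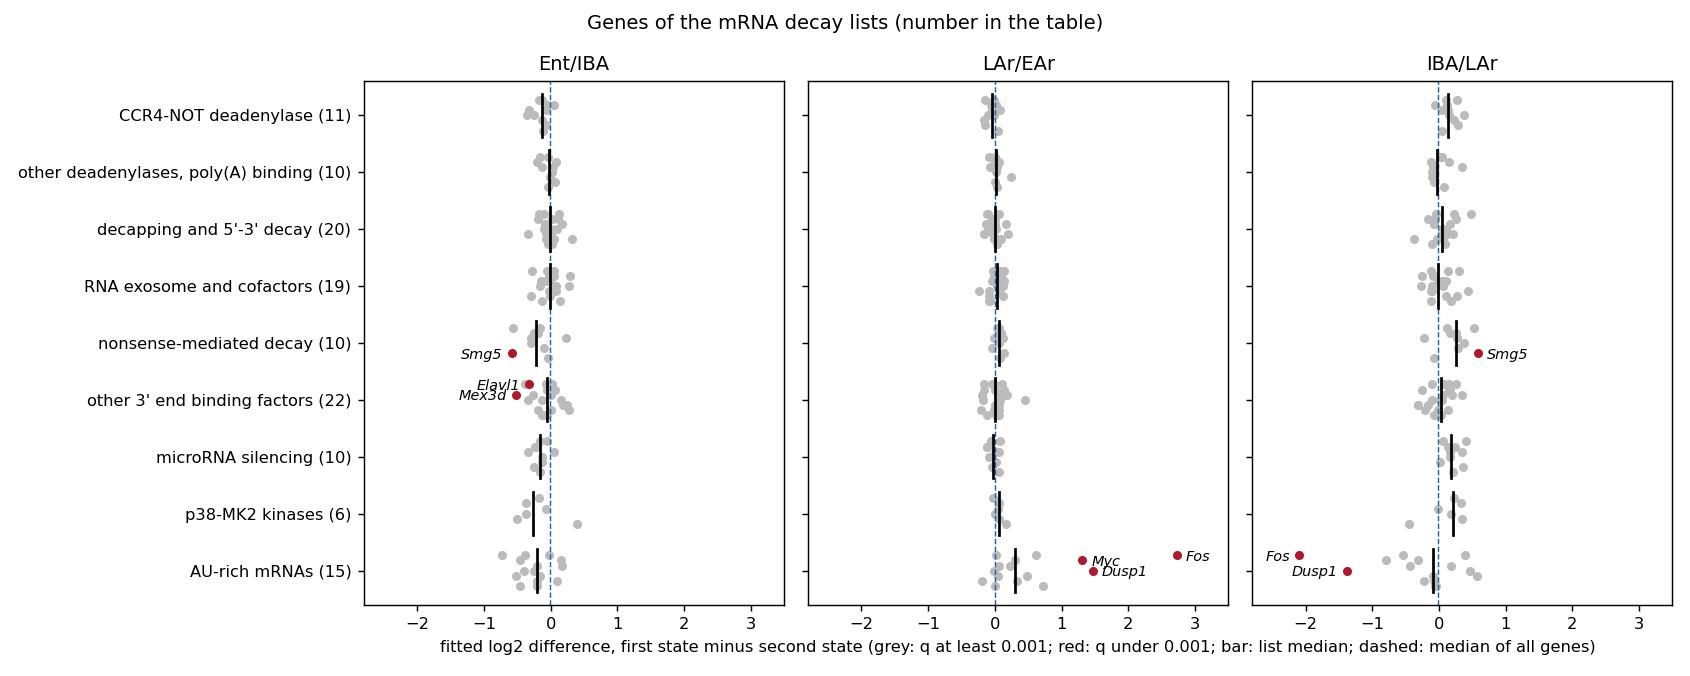
The fitted log2 difference (horizontal axis, first state minus second) of each gene of the 9 decay lists in Ent/IBA, LAr/EAr, and IBA/LAr, red where q is under 0.001, with a bar at the median of each list and a dashed line at that of all genes. In LAr/EAr the red points are the AU-rich mRNAs Fos, Dusp1, and Myc, while the machinery lists stay near 0.

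The genes most like a member, by Pearson's r over the 29 animals and without a test, are given for the 4 members DE across states. For Zfp36 they were Egr1 (r = 0.922) and Fos (0.908), both transcription factors, and Csrnp1 (0.918). For Btg2 they were Mocs3 (0.889), which encodes an enzyme of molybdenum cofactor synthesis, Zfp36 (0.886), and Fos (0.884). For Mex3c they were Dusp6 (0.938), a phosphatase of ERK kinases, Mob3c (0.925), and Pdik1l (0.923). For Tob1 they were Btg2 (0.770), Ppp1r15b (0.759), a subunit of an eIF2α phosphatase, and Nfil3 (0.751), a transcription factor. The r of Btg2 with Zfp36 was 0.231 when each animal was taken as its departure from the value fitted for its state, sex, and experiment, so most of their likeness lay between states. The points of such an r share states, experiments, and libraries.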

How the data were processed

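Kidney RNA of 31 squirrels was sequenced by the authors in 2 experiments, with different poly(A)-selecting kits (TruSeq stranded in experiment 1, Nugen Universal Plus in experiment 2). Reads were trimmed with cutadapt, mitochondrial reads were removed by alignment with HISAT2, and transcripts were quantified with Salmon against the HiC_Itri_2 annotation. The deposited table holds rlog values (DESeq2) on the log2 scale, which the authors filtered for low expression and from which they removed the experiment effect with limma. Experiment means are equal for every gene (largest difference 7.1e-15), although the states were not spread evenly over the experiments, and the study's own count test cannot be rerun, so limma was used on the log2 values. Counts are not part of the table, so depth and counting error are unknown, and precision rests on the number of animals (4 or 5 per state) and a median residual SD of 0.155.

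Rows were matched by gene symbol, case ignored, taking the row with the highest mean where several rows share it. limma (version 3.58.1, R 4.3.3) was fitted to all 12863 genes in 29 animals with state, sex, and experiment, and with an intensity trend. An F test across 6 states and 7 pairs were called at a Benjamini-Hochberg q under 0.001. Differences between related genes within a kidney were tested with 2-sided exact permutation tests over animals. The tests were checked on simulated data. The members, the decay lists, the marker lists, and these tests were chosen with earlier results of these data known, and named list genes are those DE across states, with likeness given for the members DE across states (3 genes each). Alternatives changed the animals, model terms, variance settings, filter, centering, threshold, and samples in the fit. Promoter and protein sequences were not analysed here. The paper obtained its squirrels from a captive colony or a commercial supplier. Neither source nor litter is in the labels used here, so animals were taken as independent. On that basis p-values measure the spread between animals.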

Additional observations from a re-analysis of the deposited data

Results flagged for a closer look

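Of 60 groups (10 genes in 6 states, K113 and K137 included), 6 held an animal whose gap to its nearest neighbour was large for the range of its group by Dixon's 95% criterion, where chance gives about 1 in 20. That rate does not apply to the groups with K113 or K137, which the paper had left out as outliers in these data. The 10 genes also share the same kidneys. K113 (LAr) accounted for 3. Its Btg1 was 11.55, with the other LAr kidneys at 10.25 to 10.60, its Zfp36l1 was 13.24, with the others at 12.24 to 12.47, and its Mex3c was 9.81, with the others at 9.13 to 9.33. K137 (SA) accounted for 2, Btg1 at 11.48, with the other SA kidneys at 10.37 to 10.67, and Cnot7 at 10.73, with the others at 10.98 to 11.07. The last was Zfp36l2 in K6 (SpD) at 11.33, with the nearest SpD kidney at 11.68. K6 is in all means and tests, and without it no result of Zfp36l2 passed the threshold either.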

How the results depend on the processing

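The 10 member results that passed the threshold were calls of Btg2, Zfp36, Mex3c, and Tob1 across states or in a pair. The call was lost in 13 of 116 other settings, and leaving out each animal ended it in 10 of 290 fits. Among the 116 were the looser thresholds of 0.01 and 0.05, at which a call cannot be lost. No result in a pair changed direction under the alternatives run, while a result across states has no direction to change. All 10 calls but that of Tob1 are of genes chosen on such values, so these counts show only where a call was lost. Among members that passed no test, Ent/IBA turned in experiment 2 for Tob2 (-0.47 to 0.19 between the experiments) and Zfp36l2 (-0.64 to 0.06). For the 25 results of list genes that passed the threshold the losses were 33 of 286 and 77 of 725. The thresholds of 0.01 and 0.05 were again among the 286 settings. The number of members DE in Ent/IBA was 2, and was 0 with all 31 animals, 0 in experiment 2 only, 0 with only the 2 states in the fit, 1 with median centering, 1 with no term for experiment, 5 at a threshold of 0.05, and 0 to 2 with each animal left out. For IBA/LAr it was 2, and was 1 with all 31 animals, 1 in experiment 2 only, 0 with only the 2 states in the fit, and 4 at a threshold of 0.05. At that threshold it was 3 for IBA/SA and 1 for SA/SpD, in place of 0. List genes DE across states numbered 14, with 28 under animal weights, 36 at a threshold of 0.01, 55 at 0.05, and 13 to 16 with each animal left out. The within-kidney differences were adjusted over 6 tests as a choice made after seeing the data. Over the planned 12 tests, Zfp36 included, Zfp36l1 minus Zfp36l2 had q = 0.019 and Tob1 minus Tob2 q = 0.032 in LAr/EAr. Of the 12 most like genes, 9 were also among those named by Spearman's rho, 8 with 31 animals, and 10 with the experiment term removed. No paired analysis was possible because each animal was sampled once and replicate numbers only name animals. SA, EAr, and LAr have no animals in experiment 1, so their differences from the other states cannot be checked within it, and low values cannot be judged without depth.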
